A study of Homo sapiens with 9 samples.

Results

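The immediate early genes and the feedback genes of the MAP kinase pathway were examined as a set of 37 genes listed by name for their known roles, with earlier results of these data in view. Of these, 35 had a probe set that the annotation of the arrays maps to them and to no other gene, and 34 of them passed the filter, a highest log2 signal of at least 5 over the 9 arrays, out of 11233 genes past it in all. EGR2 and BTG2 had no probe set of their own, and EGR3 stayed under the filter with a highest log2 signal of 4.57. Where a gene had several probe sets, which was so for IER3, the brightest by its mean over the arrays was taken.

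The arrays are Affymetrix Human Gene 1.0 ST arrays, and their labels name total RNA of SK-BR-3, a breast cancer cell line known for its amplified ERBB2, which encodes the receptor HER2. Tissue factor pathway inhibitor (TFPI) inhibits the tissue factor pathway of blood coagulation and is made as the secreted isoform TFPIα and the membrane-anchored isoform TFPIβ. The cells had been stably transfected with the vector pcDNA3.1/V5/His-pTOPO holding TFPIα cDNA, TFPIβ cDNA or no insert, and were grown in RPMI1640 with 10% heat inactivated serum. Each group has 3 arrays with the replicate numbers 1 to 3, here called TFPIα 1 to 3, TFPIβ 1 to 3 and empty vector 1 to 3. Each transfection is represented by a pool of stable cells, and the selection agent is puromycin in the labels and neomycin in the methods. The labels call the arrays biological replicates and the methods give a separate RNA isolation for each, but neither says whether the cultures were separate, so the p-values measure the spread between these arrays only.

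The labelled cell type was checked against markers. ERBB2 had a log2 signal of 5.88 ± 0.18 and EPCAM, an epithelial surface protein, one of 2.76 ± 0.12 (SD, n = 9). The luminal keratins KRT18, KRT8 and KRT19 had 10.40 ± 0.43, 5.86 ± 0.15 and 4.88 ± 0.20 and the basal keratins KRT5 and KRT14 had 12.64 ± 0.16 and 12.43 ± 0.29 (SD, n = 9). Of the 9 luminal markers 6 reached the filter in any array, while EPCAM, ESR1 and ERBB3 did not, and all 4 basal markers with a probe set reached it. By mean signal among 18417 genes, KRT5, KRT14 and KRT18 stood at percentiles 99.97, 99.95 and 98.7. ERBB2, amplified in SK-BR-3, stood at 59.0, ERBB3 at 20.2 and EPCAM at 8.43, and the fibroblast marker DCN at 98.4. Basal keratins were thus among the brightest genes and ERBB2 was not, while the luminal markers of a luminal-like line were mixed. This does not settle the identity of the cells, and every group below is that of the labels. TFPI itself had log2 signals of 5.51 to 5.81 in TFPIα, 5.55 to 5.81 in TFPIβ and 5.81 to 6.48 in empty vector, but the cloned cDNA held the coding region alone, so probes outside it do not see the transgene and the labels are not checked by it. Median log2 signals per array lay between 4.78 and 4.88, arrays had Pearson correlations of 0.944 to 0.990 with each other, and with 3 arrays per group their number limits the precision. Since probe sets differ in how strongly they bind, such ranks between genes are rough, and levels are otherwise compared between arrays and not between genes. In RNA from whole cultures fewer cells of a type and less RNA per cell cannot be told apart.

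Growth factor receptors act through Ras and the kinases RAF, MEK and ERK on transcription factors that are already present in the cell, among them serum response factor with Elk-1, and these switch on the immediate early genes without new protein synthesis. The products include the AP-1 subunits and the EGR and KLF zinc finger factors, which then act on further genes. Other genes induced by ERK feed back on it: the dual specificity phosphatases (DUSP) remove phosphate from MAP kinases, the Sprouty and SPRED proteins hold back Ras and RAF, and the PEA3 factors ETV4 and ETV5 are ETS transcription factors whose mRNA follows ERK activity over hours. The study asked through which signalling pathways TFPI acts, and assayed reporters of Elk-1 and AP-1, which are not analysed here.

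RefSeq promoters (GRCh38.p14, 250 bases before and 50 bases from the start of the gene on) were given for 27 of the 37 genes. The promoters of EGR1 and FOS, which varied together over the arrays, and of DUSP6 and SPRY4, feedback genes that varied together, are printed 5′ to 3′ on the strand of the gene. Capitals mark matches to 8 motifs searched on both strands: the CArG box bound by serum response factor, the cAMP response element TGACGTCA and its core TGACG, the AP-1 site TGANTCA, the ETS site CCGGAAGT, the EGR site GCGNGGGCG, the TEAD site GGAATG and the TATA box TATAAA. Positions are counted from the start of the gene, whose first base is 0. EGR1 is at chr5:138465229-138465528 (+), FOS at chr14:75278578-75278877 (+), DUSP6 at chr12:89352452-89352751 (-) and SPRY4 at chr5:142324198-142324497 (-).
EGR1: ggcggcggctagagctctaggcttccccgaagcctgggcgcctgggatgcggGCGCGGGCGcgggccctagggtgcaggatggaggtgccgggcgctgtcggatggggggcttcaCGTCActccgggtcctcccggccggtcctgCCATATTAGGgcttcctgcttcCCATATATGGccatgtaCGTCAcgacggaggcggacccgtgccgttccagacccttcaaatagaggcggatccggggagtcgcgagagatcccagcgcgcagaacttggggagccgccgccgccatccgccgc
FOS: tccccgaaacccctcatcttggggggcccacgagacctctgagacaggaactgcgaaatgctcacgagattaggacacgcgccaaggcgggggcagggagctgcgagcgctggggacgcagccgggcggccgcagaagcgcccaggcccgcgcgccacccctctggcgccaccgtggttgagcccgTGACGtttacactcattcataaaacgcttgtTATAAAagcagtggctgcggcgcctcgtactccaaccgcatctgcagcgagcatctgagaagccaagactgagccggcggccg
DUSP6: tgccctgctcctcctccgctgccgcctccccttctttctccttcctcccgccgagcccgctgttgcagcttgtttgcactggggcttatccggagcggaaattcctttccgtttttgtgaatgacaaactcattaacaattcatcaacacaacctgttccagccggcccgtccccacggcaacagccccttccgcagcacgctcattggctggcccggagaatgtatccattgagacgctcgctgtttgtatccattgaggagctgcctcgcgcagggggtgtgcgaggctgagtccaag
SPRY4: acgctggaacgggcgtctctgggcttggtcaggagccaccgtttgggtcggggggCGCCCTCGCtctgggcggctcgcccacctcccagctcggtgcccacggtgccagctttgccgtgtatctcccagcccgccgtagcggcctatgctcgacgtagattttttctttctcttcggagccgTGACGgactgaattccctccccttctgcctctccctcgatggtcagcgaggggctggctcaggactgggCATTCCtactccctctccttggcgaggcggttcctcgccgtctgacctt
In EGR1 the capitals are an EGR site at -198 to -190, CArG boxes at -105 to -96 and -83 to -74, and the core TGACG, read on the other strand, at -135 to -131 and -66 to -62. In FOS they are the core TGACG at -64 to -60 and the TATA box at -33 to -28. In SPRY4 they are an EGR site on the other strand at -195 to -187, the core TGACG at -68 to -64 and a TEAD site on the other strand at 1 to 6, and the window of DUSP6 held no match.

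Over the 27 promoters given, the core TGACG stood in 15, or 55.6%, against 24.6% of 35116 promoters of this length. All 6 promoters given for AP-1 subunits held it, and 1 of 5 of the MAP kinase phosphatases did. The whole element TGACGTCA, which contains the core, was in JUND and DUSP1, against 1.85% of all promoters. The EGR site was in 7 of the 27 promoters, or 25.9%, against 9.43% of all, among them EGR1, KLF4, KLF6, SPRY2 and SPRY4. EGR1 was the only one of the 27 with a CArG box in the window, against 1.29% of all. FOSL2 was the only one with the AP-1 site in it, against 7.71%. Sites farther from the start were not searched, so a promoter without a match here, such as that of FOS for the CArG box, may hold one outside the window. The TEAD site, read by partners of YAP, was in EGR2, SPRY4, CCN2 and ZFP36, or 14.8%, against 14.03% of all. The TATA box was in FOS, FOSB, JUNB, DUSP1 and CCN2, or 18.5%, against 11.5%, and the ETS site was in none, against 4.14%.

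**Figure D1:**
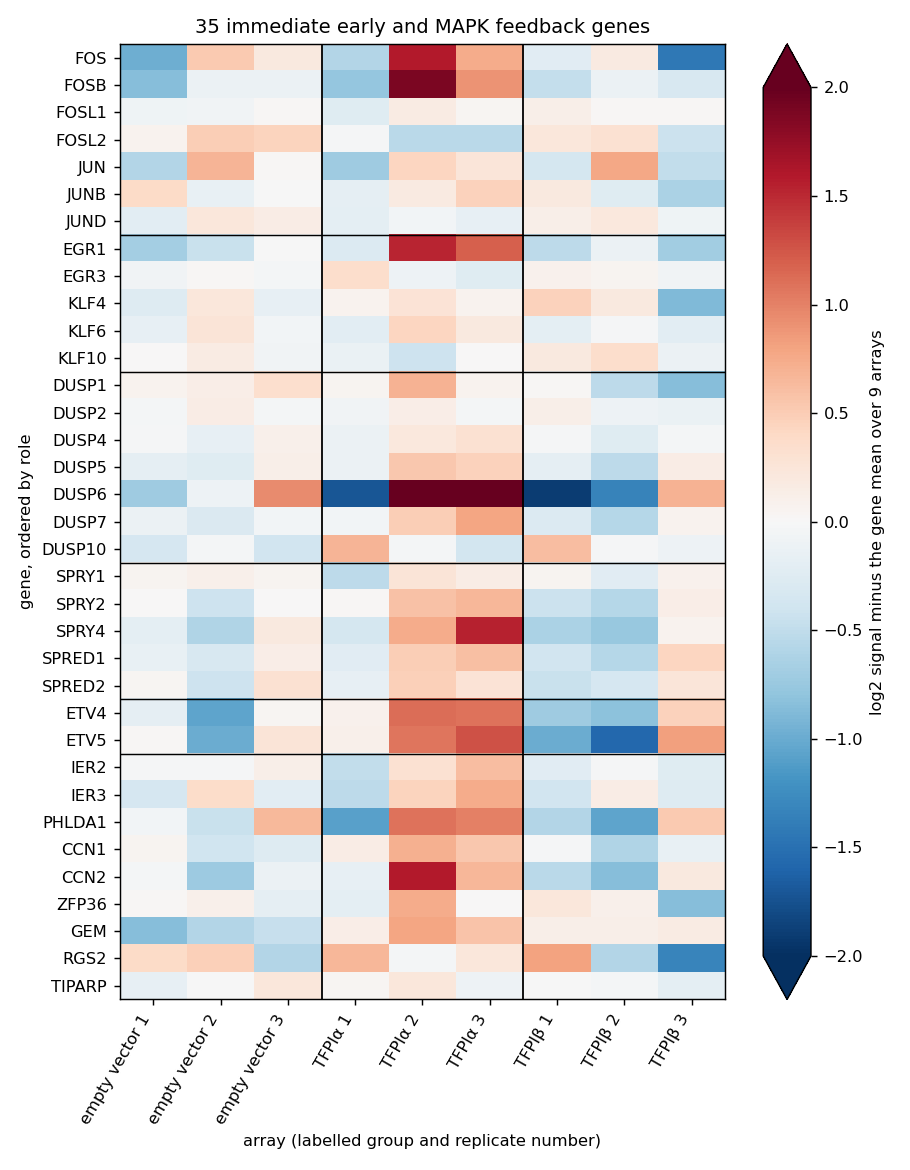
Log2 signal of each of the 35 genes with a probe set, minus the mean of the gene over the 9 arrays, with arrays in columns by labelled group and replicate number and genes in rows by role. Red is above and blue below the mean of the gene, the colour scale ends at 2 above and below it, and TFPIα 2 and TFPIα 3 stand out as the columns with the most red.

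The set as a whole was highest in 2 of the 3 arrays labelled TFPIα. The mean log2 signal over the 35 genes was 6.48, 7.25 and 7.14 in TFPIα 1, 2 and 3. It was 6.50, 6.41 and 6.52 in TFPIβ 1, 2 and 3 and 6.50, 6.57 and 6.72 in empty vector 1, 2 and 3. TFPIα 2 and TFPIα 3 thus lay above the other 7 arrays, while TFPIα 1 lay within the range of TFPIβ and just under that of the empty vector. TFPIα 2 was the highest of the 9 arrays for 16 of the 35 genes and TFPIα 3 for 10, as the map of the 35 genes over the arrays shows, and TFPIα 1 was the highest for 2 and the lowest for 7.

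No gene of the set passed the test between groups. Calls needed at least a 2-fold difference and a limma p under 0.05 after Benjamini-Hochberg adjustment over all probe sets. In TFPIα against empty vector 0 of 34 were called, against 0.00572% of all probe sets, and in both comparisons of TFPIβ 0 of 34, against 0% of all. The lowest adjusted p among the 34 genes was 0.289 in TFPIα against empty vector, 0.741 in TFPIβ against empty vector and 0.532 in TFPIβ against TFPIα. Both values against empty vector are those of GEM, which passed the filter through TFPIα arrays alone. Since no gene passed the test, the values that follow are given as differences with their error, and not as changes.

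The spread over the 9 arrays was wide for some genes and narrow for others. The range from the lowest to the highest array was at least 2 on the log2 scale for 10 of the 34 genes past the filter, against 3.52% of all probe sets past it. These were DUSP6, FOS, ETV5, FOSB, CCN2, SPRY4, EGR1, PHLDA1, ETV4 and RGS2. DUSP6 had the widest range, 4.03, or 16.3-fold, between TFPIβ 1 and TFPIα 3. The narrowest ranges were those of DUSP2 with 0.27, FOSL1 with 0.41, TIPARP with 0.43 and JUND with 0.44. Among the phosphatases the widest and the narrowest range of the set thus stood side by side.

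FOS, the founding Fos subunit of AP-1, had log2 signals of 8.68, 10.85 and 10.01 in TFPIα 1, 2 and 3. Its signals were 9.05, 9.44 and 7.83 in TFPIβ 1, 2 and 3 and 8.30, 9.79 and 9.46 in empty vector 1, 2 and 3. The groups overlapped, the array with the number 2 was the highest in each of them, and the lowest of all was TFPIβ 3. TFPIα lay 0.67 above empty vector (SE 0.64, adjusted p = 0.636), and TFPIβ differed from TFPIα by -1.07 (SE 0.64, adjusted p = 0.547).

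FOSB, a close relative of FOS, had 4.84, 7.50 and 6.52 in TFPIα 1, 2 and 3, and between 4.78 and 5.52 in the other 6 arrays. TFPIα 2 and TFPIα 3 thus stood above every other array and TFPIα 1 among the lowest. The difference of TFPIα from empty vector was 1.02 (SE 0.57, adjusted p = 0.420).

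JUN, the main partner of the Fos proteins, had 6.91, 8.05 and 7.87 in TFPIα 1, 2 and 3. It had 7.27, 8.39 and 7.12 in TFPIβ 1, 2 and 3 and 7.03, 8.30 and 7.64 in empty vector 1, 2 and 3. The array with the number 2 was the highest in all 3 groups, and the groups covered nearly the same range. The group means were 7.61 ± 0.62, 7.59 ± 0.69 and 7.65 ± 0.64 (SD, n = 3) in TFPIα, TFPIβ and empty vector, and the differences were -0.04 (TFPIα) and -0.06 (TFPIβ) from empty vector, with an SE of 0.46.

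FOSL2, a Fos relative without the strong activation domain of FOS, ran the other way. It had 7.89, 7.38 and 7.37 in TFPIα 1, 2 and 3 against 7.98, 8.41 and 8.36 in the empty vector arrays, so that these groups did not overlap. The difference was -0.70 (SE 0.23, adjusted p = 0.335). TFPIβ 1, 2 and 3 had 8.15, 8.22 and 7.48 and overlapped with both. JUNB and JUND, Jun subunits that are weaker activators than JUN, had ranges of 1.11 and 0.44 over the 9 arrays, and FOSL1 differed by 0.04 between TFPIα and empty vector.

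EGR1, a zinc finger factor that serum and growth factors induce within minutes, had 6.98, 8.77 and 8.44 in TFPIα 1, 2 and 3. It had 6.72, 7.12 and 6.55 in TFPIβ 1, 2 and 3 and 6.57, 6.80 and 7.24 in empty vector 1, 2 and 3. TFPIα 2 and TFPIα 3 lay above all other arrays, and TFPIα 1 within the ranges of both other groups. The mean of TFPIα was 1.19 above that of empty vector, or 2.29-fold (SE 0.43, adjusted p = 0.335), and TFPIβ differed from empty vector by -0.07 (SE 0.43). TFPIβ against TFPIα gave -1.27 (SE 0.43, adjusted p = 0.532).

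Within the replicate numbers 1, 2 and 3, EGR1 was higher in TFPIα than in empty vector by 0.41, 1.97 and 1.20. KLF6, KLF4 and KLF10, Krüppel-like factors of the early response, differed between TFPIα and empty vector by 0.13, 0.21 and -0.21. KLF4 was lowest in TFPIβ 3, at 5.63, and highest in TFPIβ 1, at 6.98, so that its whole range lay within that group. The 9 arrays of EGR3 lay between 3.97 and 4.57.

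**Figure D2:**
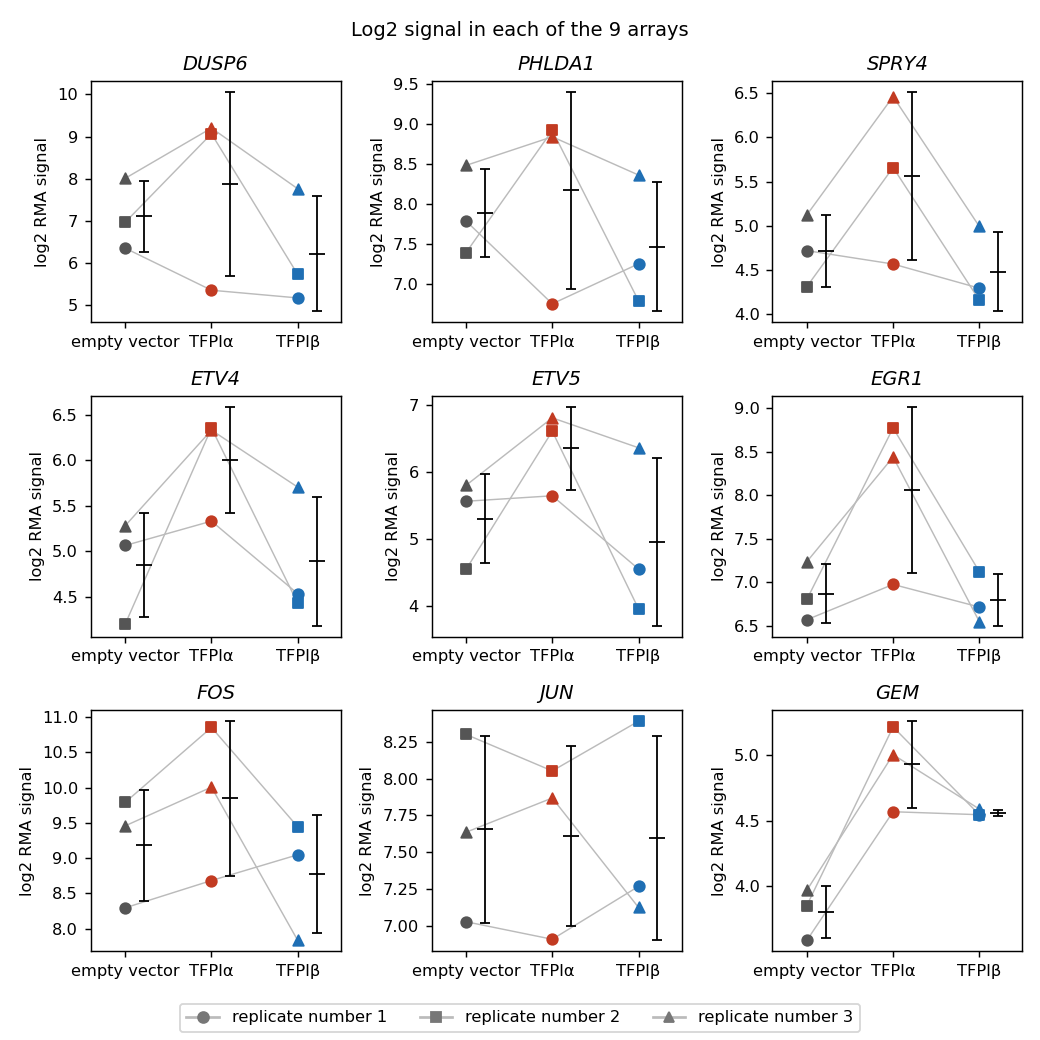
Log2 signal of 9 genes in each array, by labelled group on the horizontal axis, with circles, squares and triangles for replicate numbers 1, 2 and 3, grey lines joining arrays of the same number, and a black bar for the mean and SD of each group (n = 3). In all 9 panels the circle of TFPIα lies under its square and triangle, and in that of GEM the TFPIα and TFPIβ arrays all lie above the empty vector arrays.

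DUSP6, the cytoplasmic phosphatase that acts on ERK and whose mRNA is widely used as a readout of ERK activity, had 5.36, 9.07 and 9.20 in TFPIα 1, 2 and 3. It had 5.17, 5.73 and 7.76 in TFPIβ 1, 2 and 3 and 6.35, 6.97 and 8.01 in empty vector 1, 2 and 3. TFPIα thus held both the highest arrays and the second lowest one, and within every group the array with the number 1 was the lowest and that with the number 3 the highest. The mean of TFPIα lay 0.76 above empty vector (SE 1.09, adjusted p = 0.760), with a 95% interval from -1.73 to 3.25. TFPIβ lay at -0.89 from empty vector (SE 1.09) and at -1.65 from TFPIα (SE 1.09, adjusted p = 0.565). With the replicate number as a block in the limma model, the SE was 0.60 and TFPIβ against TFPIα had an adjusted p = 0.320. The difference of TFPIα from empty vector was -0.996 at number 1, 2.10 at number 2 and 1.19 at number 3, and it was 2.02 over all arrays but TFPIα 1.

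DUSP7, the nearest relative of DUSP6, had 7.33, 7.88 and 8.17 in TFPIα 1, 2 and 3 and between 7.10 and 7.33 in the empty vector arrays. These groups did not overlap, although TFPIα 1 and empty vector 3 are equal at this rounding. The difference was 0.56 (SE 0.23, adjusted p = 0.346) and that of TFPIβ from TFPIα -0.66 (SE 0.23, adjusted p = 0.532).

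DUSP1, the nuclear phosphatase of the stress kinases and ERK, was bright in all arrays. It had 10.85, 11.48 and 10.85 in TFPIα 1, 2 and 3 and 10.85, 10.92 and 11.12 in empty vector 1, 2 and 3, and these groups overlapped. In TFPIβ 1, 2 and 3 it had 10.80, 10.26 and 9.94, all under every array of the other groups. TFPIβ differed from empty vector by -0.63 (SE 0.25, adjusted p = 1) and from TFPIα by -0.73 (SE 0.25, adjusted p = 0.532).

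DUSP5, a nuclear phosphatase of ERK, had its highest arrays in TFPIα 2 and TFPIα 3 with 6.43 and 6.34, and its lowest in TFPIβ 2 with 5.36. DUSP10, a phosphatase of JNK and p38, had 5.68 in TFPIα 1 and 5.62 in TFPIβ 1 and between 4.62 and 4.98 in the other 7 arrays. It differed between TFPIα and empty vector by 0.34 (SE 0.28) and between TFPIβ and empty vector by 0.42 (SE 0.28). DUSP2 and DUSP4 differed by -0.02 and 0.16 between TFPIα and empty vector.

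SPRY4, a Sprouty inhibitor of receptor signalling to Ras, had 4.57, 5.66 and 6.46 in TFPIα 1, 2 and 3. It had 4.30, 4.16 and 4.99 in TFPIβ 1, 2 and 3 and 4.72, 4.31 and 5.12 in empty vector 1, 2 and 3. Again TFPIα 2 and TFPIα 3 were the highest arrays and TFPIα 1 lay among the rest. TFPIα differed from empty vector by 0.84 (SE 0.45, adjusted p = 0.409), and TFPIβ from TFPIα by -1.08 (SE 0.45, adjusted p = 0.532). Of the 9 arrays, 6 lay under the filter value of 5.

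SPRY2, which holds back the same pathway, had 5.47, 6.04 and 6.12 in TFPIα 1, 2 and 3. It had 5.02, 4.88 and 5.58 in TFPIβ 1, 2 and 3 and 5.45, 5.03 and 5.45 in empty vector 1, 2 and 3. TFPIα did not overlap with empty vector, but TFPIα 1 cleared its highest array by 0.02, and the difference was 0.56 (SE 0.24, adjusted p = 0.347). TFPIβ lay at -0.71 from TFPIα (SE 0.24, adjusted p = 0.532), with an overlap.

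SPRED1 and SPRED2, which bring neurofibromin to Ras, differed by 0.40 (SE 0.30) and 0.22 (SE 0.25) between TFPIα and empty vector. SPRED1 reached 6.97 and 7.07 in TFPIα 2 and 3, but also 6.90 in TFPIβ 3. SPRY1 was lowest in TFPIα 1, at 5.38, and lay between 5.67 and 6.15 in the other 8 arrays.

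ETV4 and ETV5 had the highest median difference among the roles. ETV4 had 5.33, 6.36 and 6.33 in TFPIα 1, 2 and 3 against 5.06, 4.20 and 5.28 in empty vector 1, 2 and 3, with no overlap. The difference was 1.16, or 2.24-fold (SE 0.44, adjusted p = 0.344). TFPIβ 1, 2 and 3 had 4.53, 4.43 and 5.71, and TFPIβ differed from TFPIα by -1.12 (SE 0.44, adjusted p = 0.532) and from empty vector by 0.04.

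ETV5 had 5.64, 6.60 and 6.80 in TFPIα 1, 2 and 3. It had 4.55, 3.96 and 6.36 in TFPIβ 1, 2 and 3 and 5.56, 4.54 and 5.80 in empty vector 1, 2 and 3. TFPIα 2 and TFPIα 3 were the highest arrays, followed by TFPIβ 3, so that the groups overlapped. TFPIα differed from empty vector by 1.05 (SE 0.62, adjusted p = 0.440) and TFPIβ from TFPIα by -1.39 (SE 0.62, adjusted p = 0.532).

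The proliferation list, 12 genes of DNA replication and mitosis, moved with the PEA3 factors over the arrays, and its part in the result was not tested. Its mean log2 signal was 8.69, 8.79 and 8.82 in TFPIα 1, 2 and 3, 7.82, 6.52 and 8.85 in TFPIβ 1, 2 and 3, and 7.98, 6.95 and 7.88 in empty vector 1, 2 and 3. The mean of ETV4 and ETV5 was 5.49, 6.48 and 6.57, then 4.54, 4.19 and 6.03, then 5.31, 4.37 and 5.54 in the same order. TFPIβ 2 and empty vector 2 were the lowest arrays of both means. All 12 proliferation genes had a higher mean in TFPIα than in empty vector, against 45.9% of all probe sets above 0, with a median of 1.15. For 11 of them the groups did not overlap, against 8.78% of all probe sets, while 0 passed the test.

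CCN1 and CCN2, secreted matrix proteins that are targets of serum response factor and of YAP, are early response genes with other roles. CCN1 had 6.82, 7.38 and 7.21 in TFPIα 1, 2 and 3 against 6.72, 6.26 and 6.40 in empty vector 1, 2 and 3, with no overlap. It had 6.65, 6.06 and 6.52 in TFPIβ 1, 2 and 3, all under TFPIα too. TFPIα lay 0.67 above empty vector (SE 0.20, adjusted p = 0.335) and TFPIβ at -0.73 from TFPIα (SE 0.20, adjusted p = 0.532).

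CCN2 had 6.94, 8.69 and 7.77 in TFPIα 1, 2 and 3, between 6.25 and 7.31 in TFPIβ and between 6.38 and 7.07 in empty vector. TFPIα 1 lay within both other groups. TFPIα differed from empty vector by 0.99 (SE 0.44, adjusted p = 0.359) and TFPIβ from TFPIα by -1.09 (SE 0.44, adjusted p = 0.532).

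GEM, a small GTP-binding protein that acts on calcium channels and the cytoskeleton, was dim but separated both overexpressing groups from the control. It had 4.57, 5.22 and 5.00 in TFPIα 1, 2 and 3, 4.55, 4.55 and 4.59 in TFPIβ 1, 2 and 3, and 3.59, 3.85 and 3.97 in empty vector 1, 2 and 3. The difference from empty vector was 1.13 for TFPIα, or 2.18-fold (SE 0.17, adjusted p = 0.289), and 0.76 for TFPIβ, or 1.69-fold (SE 0.17, adjusted p = 0.741). The mean of GEM was under 5 in every group, and it passed the filter through TFPIα arrays alone, so the filter itself favoured a difference of this direction. Both comparisons use the same 3 empty vector arrays.

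PHLDA1, a pleckstrin homology-like protein induced by ERK, had 6.75, 8.92 and 8.84 in TFPIα 1, 2 and 3. It had 7.25, 6.78 and 8.36 in TFPIβ 1, 2 and 3 and 7.78, 7.39 and 8.48 in empty vector 1, 2 and 3. TFPIα held the lowest array and the 2 highest, and the difference from empty vector was 0.28 (SE 0.63, adjusted p = 0.856).

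RGS2, which damps signalling by G proteins, had 9.37, 8.67 and 8.93 in TFPIα 1, 2 and 3, 9.51, 8.11 and 7.38 in TFPIβ 1, 2 and 3, and 9.09, 9.18 and 8.12 in empty vector 1, 2 and 3. Its widest gap lay inside TFPIβ, between the arrays 1 and 3. ZFP36, which binds AU-rich mRNAs and speeds their decay, was lowest in TFPIβ 3, at 5.14, and highest in TFPIα 2, at 6.74. IER2, IER3 and TIPARP differed by 0.11, 0.28 and 0.04 between TFPIα and empty vector.

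**Figure D3:**
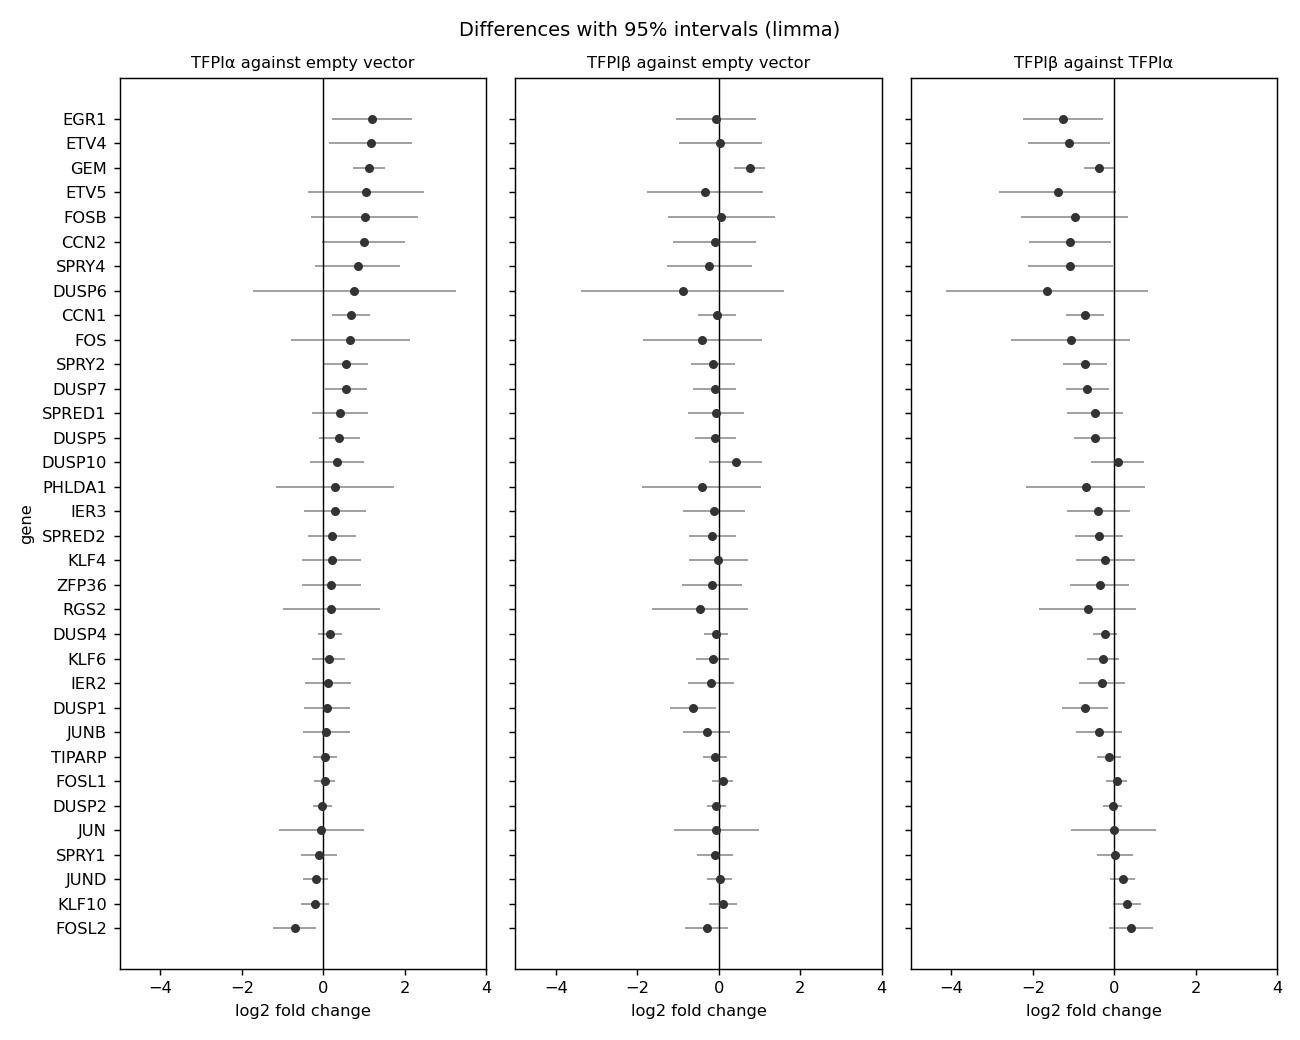
Log2 fold change of the 34 genes past the filter in the 3 comparisons, each point with its 95% interval from limma and genes ordered by their value in TFPIα against empty vector. EGR1, ETV4 and GEM lie farthest right in the panel of TFPIα against empty vector and DUSP6 has the widest interval.

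In TFPIα against empty vector, the set leaned upwards. The log2 fold change was above 0 for 29 of 35 genes, against 45.9% of all probe sets, and its median was 0.22, against -0.02 over all. By role the median was 1.10 for the PEA3 factors, 0.40 for the Sprouty and SPRED inhibitors, 0.34 for the phosphatases, 0.28 for the other early response genes, 0.13 for the zinc finger factors and 0.04 for the AP-1 subunits. At least 2-fold higher were EGR1, ETV4, GEM, ETV5 and FOSB, 5 genes against 0.715% of all probe sets. Shares by sign, fold and overlap are over all 33297 probe sets, of which 17482 passed the filter, while 34 of the 35 genes did. They are thus not matched in brightness to the set. The groups did not overlap for 5 higher genes, against 8.78% of all, and 1 lower gene, FOSL2, against 6.94%. An unadjusted p under 0.05 was reached by 6 higher genes, GEM, CCN1, EGR1, ETV4, DUSP7 and SPRY2, against 8.59% of all probe sets, and by FOSL2, against 5.58% lower. After FOSL2, the lowest values were those of KLF10 with -0.21 (SE 0.15) and JUND with -0.19 (SE 0.13). With the replicate number as a block there were 9 genes in all, against 20.3% of all probe sets. GEM is in each of these counts of higher genes although it passed the filter through TFPIα arrays alone, so they are given as a description. The 7 genes at an unadjusted p under 0.05 became 15 without TFPIα 1 and 2 without TFPIα 2, TFPIα 3 or empty vector 2.

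In TFPIβ against empty vector, 27 of 35 genes had a log2 fold change below 0, while 49.6% of all probe sets lay above it, and the median was -0.10. GEM was higher at an unadjusted p under 0.05, against 2.49% of all probe sets, and DUSP1 lower, against 2.23%. The same 2 genes were those whose groups did not overlap, against 3.01% of all probe sets higher and 3.38% lower. GEM passed the filter through TFPIα arrays alone, so its place in these counts is a description. The 3 lowest log2 fold changes were those of DUSP6, DUSP1 and RGS2, the last at -0.46 (SE 0.52), and after GEM the highest were DUSP10 and KLF10, the last at 0.11 (SE 0.15). With the replicate number as a block 2 genes reached it, against 7.16%. No gene differed by 2-fold. The counts by p and by overlap lay near the background of these arrays, while the share of genes below 0 lay above it.

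In TFPIβ against TFPIα, 28 of 35 genes lay below 0, with a median of -0.38, while 53.2% of all probe sets lay above 0. Lower at an unadjusted p under 0.05 were 8 genes, CCN1, SPRY2, DUSP1, EGR1, DUSP7, ETV4, CCN2 and SPRY4, against 4.7% of all probe sets, and 0 were higher, against 3.94%, or 8.63% in either direction. The 3 highest values were those of FOSL2 with 0.40 (SE 0.23), KLF10 with 0.32 (SE 0.15) and JUND with 0.21 (SE 0.13). At least 2-fold lower were 7 genes, against 0.511% of all probe sets, past the filter or not: DUSP6, ETV5, EGR1, ETV4, CCN2, SPRY4 and FOS. The groups did not overlap for CCN1 and DUSP1, against 4.78% of all probe sets lower, and 0 were apart in the higher direction, against 5.3%. With the replicate number as a block, 14 genes reached an unadjusted p under 0.05, against 15.4% of all probe sets, and 0 were called, with a lowest adjusted p = 0.320. The 8 genes became 21 without TFPIα 1, 1 without TFPIα 2, and 3 without TFPIα 3 or TFPIβ 2.

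**Figure D4:**
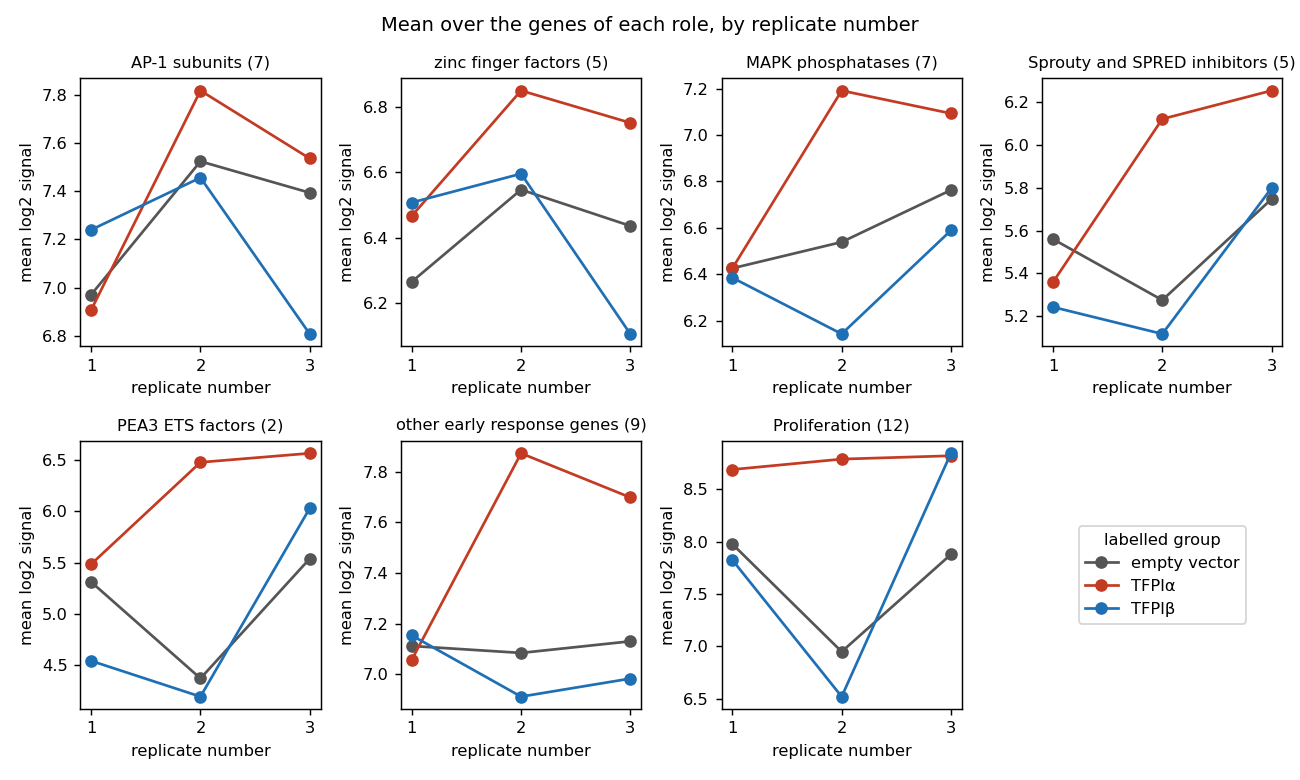
Mean log2 signal over the genes of each role, and over the proliferation list, against replicate number, with a line for each labelled group and the number of genes in brackets. In the panel of the AP-1 subunits all 3 lines peak at number 2, and in those of the Sprouty and SPRED inhibitors and the PEA3 factors all 3 lines are highest at number 3.

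For some genes the means of the replicate numbers lay farther apart than those of the vectors. With the group in the model, the F-test of the number called 0 of 34 genes, against 0% of all probe sets, with a lowest adjusted p = 0.212 for JUN. At an unadjusted p under 0.05 there were 8 genes, JUN, DUSP6, KLF6, SPRY4, RGS2, IER3, SPRED1 and FOSB, against 16% of all probe sets. The means of the numbers differed by at least 1 for 7 of 35 genes, against 2.52% of all probe sets, past the filter or not. By the methods the arrays of a cell line come from separate RNA isolations, and whether a number marks a day, a culture or a processing run shared by the groups is not stated.

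The means of some roles peaked at different numbers, but not every gene of a role followed. FOS, JUN, JUND and KLF6 were highest in the array with the number 2 in all 3 groups, 4 of 35 genes against 3.63% of all probe sets. JUN had means of 7.07, 8.25 and 7.54 over the 3 arrays of the numbers 1, 2 and 3 (F-test adjusted p = 0.212). FOS had means of 8.68, 10.03 and 9.10 in the same order (F-test adjusted p = 0.325). These are subunits of AP-1 and a factor of the early transcriptional response.

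DUSP6, SPRY4, SPRED1, ETV5 and DUSP7 were highest in the array with the number 3 in all 3 groups, 5 of 35 genes against 4.46% of all probe sets. DUSP6 had means of 5.63, 7.26 and 8.32 over the numbers 1, 2 and 3, a 6.48-fold span (F-test adjusted p = 0.239). SPRY4 had means of 4.53, 4.71 and 5.53 (F-test adjusted p = 0.284), and SPRED1 of 6.22, 6.34 and 6.86. All 5 are feedback regulators of ERK or PEA3 factors. Other phosphatases differed: DUSP1 had means of 10.83, 10.89 and 10.64 and DUSP10 of 5.32, 4.97 and 4.72. DUSP6, IER3 and FOSB were lowest at the number 1 in all groups, 3 genes against 4.64%, and DUSP10 lowest at the number 3, against 6.13%. No gene was highest at the number 1, against 6.89%, or lowest at the number 2, against 5.34%, in all 3 groups. The proliferation list had means of 8.16, 7.42 and 8.51 over the numbers, and its part in these patterns was not tested.

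**Figure D5:**
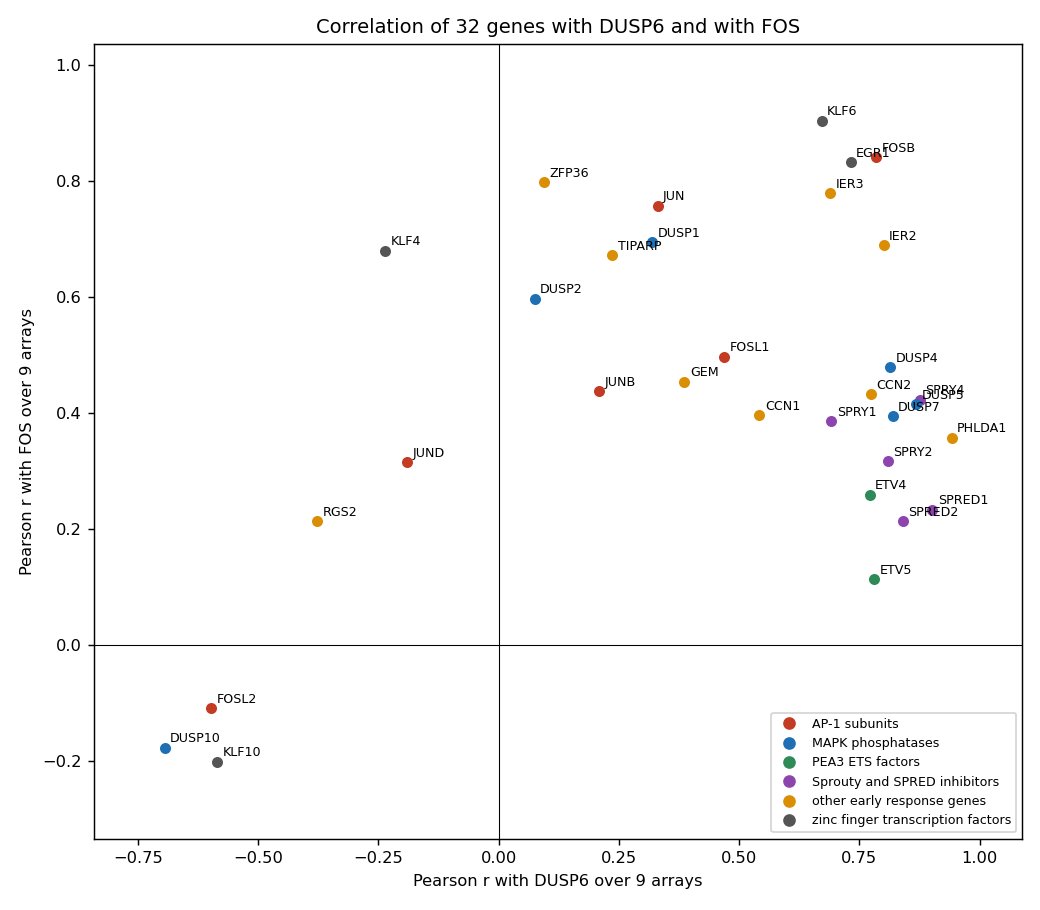
Pearson correlation over the 9 arrays of each of 32 genes with DUSP6 (horizontal) and with FOS (vertical), coloured by role. The Sprouty and SPRED inhibitors and the PEA3 factors lie to the right at low values of the vertical axis, and KLF6, EGR1 and FOSB lie at the top right.

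Over the 9 arrays, each gene past the filter was correlated with DUSP6 and with FOS, both taken as references after their values had been seen. Arrays share group and replicate number, so these correlations describe the arrays and give no account of control. In all 67 relations were computed, with exact two-sided permutation tests and adjustment over the 67. The permutations exchange all 9 arrays freely. Arrays that share a group or a number need not be exchangeable, so these p-values are a description and not a test of independence. A Pearson r of at least 0.8 with DUSP6 was found for 9 of 33 genes, or 27.3%, against 2.55% of all probe sets. The same with FOS was found for 3 of 33, or 9.09%, against 0.183%. Most genes of the set thus reached it with neither.

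PHLDA1 had the highest correlation with DUSP6, r = 0.942 (permutation p = 0.000551, adjusted 0.0175) and rho = 0.917 (permutation p = 0.00131, adjusted 0.0503). Without TFPIα 2 and TFPIα 3, the arrays farthest from the median of DUSP6, r was 0.886, and after subtraction of the group means 0.938. After subtraction of the means of the numbers as well, r was 0.986. SPRED1 had r = 0.901 (permutation p = 0.00199, adjusted 0.0250) and rho = 0.867 (permutation p = 0.00451, adjusted 0.0503), and without the same arrays r = 0.780. SPRY4 had r = 0.876 (permutation p = 0.000785, adjusted 0.0175) and rho = 0.883 (permutation p = 0.00308, adjusted 0.0503), and without them r = 0.761. Among the other 6 genes with an r of at least 0.8, it was 0.748 for SPRED2 and 0.664 for DUSP5 without these arrays. For IER2, DUSP4, DUSP7 and SPRY2 it came down to between 0.488 and 0.519, so that their relation to DUSP6 leaned in good part on TFPIα 2 and TFPIα 3.

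EGR1 had r = 0.731 to DUSP6 (permutation p = 0.0202, adjusted 0.0675) and rho = 0.550 (permutation p = 0.133, adjusted 0.267). Without TFPIα 2 and TFPIα 3 its r was 0.03, so that relation rested on those arrays. The proliferation list had r = 0.484 to DUSP6 (permutation p = 0.188, adjusted 0.358) and rho = 0.550 (permutation p = 0.133, adjusted 0.267), and without the 2 arrays r = 0.165.

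KLF6 had the highest correlation with FOS, r = 0.904 (permutation p = 0.000358, adjusted 0.0175) and rho = 0.883 (permutation p = 0.00308, adjusted 0.0503). Without TFPIα 2 and TFPIβ 3, the arrays farthest from the median of FOS, r was 0.861. After subtraction of the means of the groups and of the numbers, r was 0.695. FOSB had r = 0.842 (permutation p = 0.00235, adjusted 0.0250) and rho = 0.833 (permutation p = 0.00827, adjusted 0.0692), and without these arrays r = 0.896. EGR1 had r = 0.833 (permutation p = 0.00194, adjusted 0.0250) and rho = 0.867 (permutation p = 0.00451, adjusted 0.0503), and without them r = 0.676. FOS with DUSP6 gave r = 0.510 (permutation p = 0.162, adjusted 0.328) and rho = 0.583 (permutation p = 0.108, adjusted 0.254), and r = -0.07 without TFPIα 2 and TFPIα 3, so the references themselves were not shown to vary together.

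The genes upstream of the set had medians near that of all probe sets. Of the 22 genes of the Ras to ERK core, from adaptors to the RSK kinases, 16 had a probe set of their own, and 0 were called in any comparison. Their median log2 fold change was -0.02 in TFPIα against empty vector, -0.05 in TFPIβ against empty vector and -0.01 in TFPIβ against TFPIα. SHC1, the adaptor between receptors and Grb2, differed from empty vector by -0.39 in TFPIα (SE 0.13, adjusted p = 0.335) and by -0.31 in TFPIβ (SE 0.13, adjusted p = 1), comparisons that share the control arrays. HRAS differed by 0.25 between TFPIα and empty vector (SE 0.10). RPS6KA2, an RSK kinase, differed by -0.81 between TFPIβ and empty vector (SE 0.26, adjusted p = 1) and by -0.87 between TFPIβ and TFPIα (SE 0.26, adjusted p = 0.532).

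The receptors and ligands of the EGF family had a median of 0.07 in TFPIα against empty vector over 11 genes. Only 5 of them passed the filter, and 0 of the 5 reached an unadjusted p under 0.05, against 14.2% of all probe sets. Among 9 nuclear effectors, among them SRF, ELK1 and ETS1, the median was 0.07, and their binding to the promoters was not measured. ELK3 differed by 0.49 (SE 0.18) and ETS2 by -0.98 (SE 0.41) between TFPIα and empty vector. Of 15 genes of the stress kinases JNK and p38, 9 lay above 0, with a median of 0.03. MAP2K3, a kinase of p38, differed by 0.53 (SE 0.18) and ATF2, a target of JNK and p38, by -0.25 (SE 0.10).

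A further 31 immediate early and feedback genes outside the 37 did not lean upwards. In TFPIα against empty vector 14 of 31 lay above 0, against 45.9% of all probe sets, with a median of -0.04, and 3 of the 28 past the filter reached an unadjusted p under 0.05, against 14.2%. NFIL3, a bZIP repressor, differed by -1.14 (SE 0.31, adjusted p = 0.335), CCND1, the cyclin D1 gene, by 0.66 (SE 0.27), and CSRNP1 by 0.24 (SE 0.11). In TFPIβ against TFPIα 10 of 31 lay above 0, against 53.2% of all probe sets, and 5 of 28 reached an unadjusted p under 0.05, against 8.63%, among them ETV1, the other PEA3 factor, with -1.41 (SE 0.61, adjusted p = 0.532). In TFPIβ against empty vector 22 of 31 lay below 0, with a median of -0.12, beside 27 of 35 and -0.10 for the set itself. DUSP16, a phosphatase of JNK, differed by -0.34 (SE 0.12) and was the only 1 of the 28 at an unadjusted p under 0.05, against 4.72% of all probe sets.

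The targets of YAP and serum response factor other than CCN1 and CCN2 had a median of 0.01 over 14 genes in TFPIα against empty vector. Of these 11 passed the filter, and 0 of the 11 reached an unadjusted p under 0.05, against 14.2% of all probe sets. The heat shock genes, which also answer to handling of cultures, had a median of 0.18 over 8 genes, and HSPH1 and HSP90AA1, both chaperones, differed by 1.24 (SE 0.49) and 0.69 (SE 0.24). Markers of fibroblasts, immune and endothelial cells had medians of -0.05, -0.06 and 0.11 in the same comparison, and 3 of 7, 1 of 4 and 1 of 3 of them reached the filter in any array. DCN, the fibroblast marker decorin, had means of 9.95 in TFPIα, 9.60 in TFPIβ and 10.85 in empty vector. It differed from empty vector by -0.90 in TFPIα (SE 0.20, adjusted p = 0.335) and by -1.26 in TFPIβ (SE 0.20, adjusted p = 0.665), without overlap in either comparison. CD14, the immune marker past the filter, differed by -0.40 in TFPIα and -0.87 in TFPIβ (SE 0.63 for both). All 4 basal markers lay below 0 in both comparisons with the empty vector, but the nearest only by -0.005 in TFPIα and -0.006 in TFPIβ. Farthest from 0 in TFPIα was ITGB4, an integrin subunit, at -0.86 (SE 0.27, adjusted p = 0.335). Of the 9 luminal markers 4 lay above 0 in TFPIα against empty vector and 7 in TFPIβ against empty vector. The part of these markers in the differences of the set was not tested.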

How the data were processed

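Signals were made by the authors from the scanned images with the RMA algorithm of the Partek software (versions not given in the sources used here). The deposited values are log2 signals, 1 for each of 33297 probe sets, with the log base inferred from their range. The filter stated in the authors' methods, a highest signal of at least 5, kept 17482 probe sets when applied to the deposited table, fewer than the study states, of which 11838 carry 1 gene symbol, 1150 several and 4494 none. One limma model (version 3.58.1, R 4.3.3, lmFit and eBayes) was fitted to all 9 arrays, with p-values adjusted over all 17482 probe sets, and tested on simulated data. The replicate number was tested with the group in the model. The smallest exact permutation p for 3 arrays against 3 is 0.1, so permutation was not used between groups.

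The members and the gene lists were chosen with earlier results of these data known. Named with values are every member of a comparison with an unadjusted p under 0.05, the 3 highest and 3 lowest by log2 fold change, the 6 with the smallest p for the replicate number, 10 genes in any case, and up to 4 such genes of each list. Other genes were added after their values were seen. Promoters came from RefSeq (GRCh38.p14).

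Deviations from the group means over all probe sets correlated at 0.137 to 0.594 in the 9 pairs of arrays that share a number, and at -0.512 to 0.266 in the 18 pairs that do not. Over the genes of the set alone the ranges were -0.053 to 0.839 and -0.800 to 0.604. Arrays that share a number thus tended to deviate together over all probe sets, but the ranges overlap, widely so for the set. A block on the number was an alternative fit. The SE and adjusted p printed for single genes are those without the block unless it is named. With it the SE was 0.60 against 1.09 for DUSP6, 0.22 against 0.46 for JUN and 0.46 against 0.44 for CCN2. Further alternatives were a threshold of 0.1, no variance moderation, fits to the compared groups alone, no filter or one at 6, median centring of arrays, a trended and robust prior, the mean of all probe sets of a gene, each array left out in turn and, chosen after seeing the data, all arrays of number 1 left out. Plots were made with matplotlib 3.10.9 (Python 3.11.15).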

Additional observations from a re-analysis of the deposited data

How the results depend on the processing

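No alternative called a member in any comparison, where the fits were repeated with a threshold of 0.1, without moderation, with the compared groups only, with other filters, scaling and prior, and without single arrays. The medians over the 35 genes kept their sign, at 0.14 to 0.40 in TFPIα against empty vector, -0.14 to -0.05 in TFPIβ against empty vector and -0.56 to -0.28 in TFPIβ against TFPIα with each array left out in turn. Counts at an unadjusted p under 0.05 moved more. In a one-way model without moderation they were 3, 1 and 5 in the same order, and with a filter at 6, which kept 29 genes, 1 in TFPIβ against empty vector. With a replicate block TFPIβ against TFPIα gave 14, and without the arrays of number 1, an alternative chosen after seeing the data, 16. Among the counts over the whole set the block changed no other by over 1.5 times, and it called no member. Counts of other lists moved more with it. In TFPIα against empty vector 8 of the 28 further immediate early genes reached an unadjusted p under 0.05 with the block, and 3 without. Of the 11 targets of YAP and serum response factor 2 did with it and 0 without. The share of all probe sets with the block was 20.3%. With each array left out in turn the counts were 2 to 15 in TFPIα against empty vector (15 without TFPIα 1, 4 without empty vector 3), 1 to 3 in TFPIβ against empty vector (1 without TFPIβ 2, empty vector 2 or empty vector 3), 1 to 21 in TFPIβ against TFPIα and 4 to 13 for the replicate number. The last had 13 without TFPIα 2, 5 without TFPIα 3, TFPIβ 2 or TFPIβ 3 and 4 without empty vector 2 or 3, and 5 without a group term. The cause was not tested.

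Signs turned only with an array left out. In TFPIβ against empty vector the ranges were -0.17 to 0.12 for CCN1, -0.24 to 0.11 for EGR1, -0.37 to 0.27 for ETV4, -1.05 to 0.15 for ETV5, -0.85 to 0.065 for FOS, -0.46 to 0.26 for JUN and -1.05 to 0.017 for RGS2. In TFPIα against empty vector they were -0.11 to 0.21 for DUSP1 and -0.36 to 0.31 for JUN, and in TFPIβ against TFPIα -0.41 to 0.22 for JUN.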
